A study of Mus musculus with 4 samples.

Results

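Transcripts of mast cell proteases and receptors were read in the sorted basal fraction of mouse mammary glands, in which the labels place stem cells together with myoepithelial cells and their progenitors. The set comprised 10 of the 18193 genes measured: the chymases Mcpt4 and Cma1, the carboxypeptidase Cpa3, the tryptases Tpsb2 and Tpsab1, the receptor Kit and its ligand Kitl, the IgE receptor chains Ms4a2 and Fcer1a, and Hdc. Every probe set that the platform annotation assigned to exactly one of these genes was taken, which gave 17 of the 45037 probe sets that are no controls. Of those 45037, 34945 had exactly 1 gene. The genes were chosen with their differences between the diets known, so the values of the 17 probe sets are given as a description, without a test.

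The 4 Affymetrix arrays came from mice of a mixed background (B66SJL/HEV/J) that all carried the MMTV-Wnt1 transgene, in which the MMTV promoter drives the Wnt1 ligand in the mammary gland. In 2 of them the mice were on the soy protein isolate (SPI) diet and in 2 on the control casein (CAS) diet. No wild-type animals are among these samples, so both diets were read on the transgene. The age of the mice and the surface markers of the sort are not stated in the labels. Nor is it stated whether 2 arrays of one diet were made from different mice, so p-values cover only the scatter among these arrays, and that scatter may be technical.

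Mast cells are tissue-resident cells of the haematopoietic lineage that store proteases, histamine and proteoglycan in granules. Their survival depends on the receptor tyrosine kinase KIT and its ligand, stem cell factor, the product of Kitl, and antigen releases the granules through IgE bound to a receptor made of an alpha chain (Fcer1a), a beta chain (Ms4a2) and a gamma chain (Fcer1g). In mice, mast cells of connective tissue hold Mcpt4, Cma1, Cpa3 and tryptase, and mucosal mast cells hold the chymases Mcpt1 and Mcpt2. The mammary stroma contains mast cells, and in the mouse they take part in the branching of the ducts during puberty. Kit is not restricted to mast cells: luminal progenitors of the mouse mammary gland and melanocytes also express it.

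The deposited log2 values had a median of 0 over the 4 arrays in every probe set, so they hold differences between arrays and no levels. With 4 arrays this makes the 2 middle values mirror images of each other, as with -0.55 and 0.55 for Cma1. The digits of the values keep a coarse class of the level before centring, which follows the array with the lowest level. In the class 8 to 16 lay all 6 actin and Gapdh control probe sets, 68 of 96 probe sets of ribosomal proteins and 3 of 43 of olfactory receptors, and 27 of those 43 lay in the class 2 to 4. Chance can place a probe set a class too high. For the label of the sorted population, 11 of 18 probe sets of 8 basal and myoepithelial markers were in the class 8 to 16, among them probe sets of Krt5, Krt14 and Acta2. In the same class were 6 of 14 luminal progenitor probe sets, 5 of 19 fibroblast probe sets and 11882 of all 45037. So coarse a class does not show which cells the fraction held. Of the mast cell set, 7 probe sets were in the class 8 to 16 (Cma1, Cpa3, 1 of Kit and all 4 of Kitl), 3 in the class 4 to 8, and 7 in the class 2 to 4.

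Upstream sequences show what the start regions of the mast cell genes share, which the choice of genes did not use. RefSeq promoters on the GRCm38.p6 build were at hand for 8 of the 10 genes, and for the 250 bases before the start they were searched for GATAA on both strands (TTATC on the other), the core of the sites of GATA factors. GATA2 is needed for mast cell development. A match was found in 5 of the 8 genes, Mcpt4, Cma1, Cpa3, Fcer1a and Ms4a2, and in 22.6% of 32851 promoters of the same length. These 5 are printed 5′ to 3′ with the matches in capitals.
Mcpt4 (chr14:56062311-56062560, minus strand): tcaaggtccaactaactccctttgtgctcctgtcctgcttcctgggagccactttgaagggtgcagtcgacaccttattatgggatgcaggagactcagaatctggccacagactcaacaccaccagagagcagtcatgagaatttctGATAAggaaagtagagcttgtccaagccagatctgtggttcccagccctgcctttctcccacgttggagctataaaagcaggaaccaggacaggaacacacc
Cma1 (chr14:55944676-55944925, minus strand): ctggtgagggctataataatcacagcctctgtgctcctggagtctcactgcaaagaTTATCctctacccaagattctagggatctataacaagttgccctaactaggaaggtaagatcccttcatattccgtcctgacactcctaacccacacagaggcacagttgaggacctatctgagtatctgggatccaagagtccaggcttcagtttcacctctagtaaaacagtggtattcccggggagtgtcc
Cpa3 (chr3:20242182-20242431, minus strand): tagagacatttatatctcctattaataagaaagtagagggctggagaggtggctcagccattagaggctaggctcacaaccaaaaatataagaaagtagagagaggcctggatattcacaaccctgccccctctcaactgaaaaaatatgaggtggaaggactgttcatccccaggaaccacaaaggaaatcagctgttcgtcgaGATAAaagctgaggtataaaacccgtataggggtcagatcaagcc
Fcer1a (chr1:173227230-173227479, minus strand): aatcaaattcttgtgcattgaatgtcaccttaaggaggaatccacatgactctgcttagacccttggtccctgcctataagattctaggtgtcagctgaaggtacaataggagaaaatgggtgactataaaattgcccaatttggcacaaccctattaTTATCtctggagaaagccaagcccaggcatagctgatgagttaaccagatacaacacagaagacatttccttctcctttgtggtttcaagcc
Ms4a2 (chr19:11623720-11623969, minus strand): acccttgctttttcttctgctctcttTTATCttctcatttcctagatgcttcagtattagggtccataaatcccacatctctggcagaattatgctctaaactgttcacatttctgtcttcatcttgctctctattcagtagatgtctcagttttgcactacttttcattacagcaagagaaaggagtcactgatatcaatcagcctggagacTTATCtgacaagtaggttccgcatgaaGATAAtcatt
The match began 102 bases before the start in Mcpt4, 194 in Cma1, 45 in Cpa3 and 92 in Fcer1a. In Ms4a2 there were 3 matches, at 224, 37 and 10 bases, and 4.28% of all promoters held at least 2. The windows of Kit, Kitl and Hdc held no match. Those of Kit and Kitl were 70.8% and 69.2% G and C and that of Hdc 48.8%, where the median of all promoters was 52.4%. The 5 windows with a match were all below that median, from 38.8% in Ms4a2 to 51.2% in Mcpt4. GATAA is rich in A and T, and no comparison with promoters of like composition was made. The E-box CANNTG, the kind of site that MITF and other helix-loop-helix factors bind and which reads the same on both strands, was found in Cma1, Cpa3, Fcer1a and Hdc and in 66.2% of all promoters. A match is a run of letters and not a measured binding site.

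The 2 chymases and the carboxypeptidase were lower in SPI on both arrays. Mcpt4, a chymase of connective tissue mast cells (probe set 1425967_a_at), had log2 values of -0.77 and -0.95 in SPI, against 0.93 and 0.77 in CAS. The difference was -1.71 (SE 0.10 of the limma fit, n = 2 arrays per diet), which is 3.27-fold lower in SPI. The nearest arrays of the 2 diets were 1.54 apart, while the SPI arrays lay 0.18 and the CAS arrays 0.15 from each other.

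Cpa3 (1448730_at), the carboxypeptidase that trims peptides after the chymases have cut them, had log2 values of -0.73 and -0.81 in SPI, against 0.73 and 0.88 in CAS. Its difference was -1.57 (SE 0.09), or 2.98-fold. Cma1 (1449456_a_at), the other chymase, had log2 values of -0.55 and -0.73 in SPI, against 0.55 and 0.56 in CAS, a difference of -1.20 (SE 0.09), or 2.29-fold. For these 3 genes the groups did not overlap and the distance between diets was several times the distance within either diet. Cpa3 and Cma1 were in the class 8 to 16, whereas Mcpt4 was in the class 2 to 4, that of most olfactory receptor probe sets, so at least 1 of its arrays was below 4. Such a level does not establish that the RNA was measured on that array, and if it was not, the fold of Mcpt4 is a lower bound. In bulk samples such as these, fewer mast cells and less RNA per mast cell cannot be told apart.

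The tryptases did not show this pattern. Tpsb2, the tryptase stored by connective tissue mast cells, was read by 2 probe sets that gave different spreads. On the first (1422180_a_at) the log2 values were 0.43 and -0.25 in SPI, against 0.07 and -0.07 in CAS, so the CAS arrays lay between the SPI arrays and the difference of 0.09 (SE 0.23) was smaller than the gap of 0.68 within SPI. On the second (1451802_at) they were 0.14 and 0.01 in SPI, against -0.01 and -0.18 in CAS, a difference of 0.17 (SE 0.10) with the nearest arrays 0.01 apart. Tpsab1 (1426175_a_at), the other tryptase, had values of -0.07 and -0.03 in SPI, against 0.23 and 0.03 in CAS, a difference of -0.18 (SE 0.10). All 3 tryptase probe sets were in the class 2 to 4, as was Mcpt4, with the same limit. No test of chymases against tryptases was made, because both were chosen on this contrast.

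**Figure D1:**
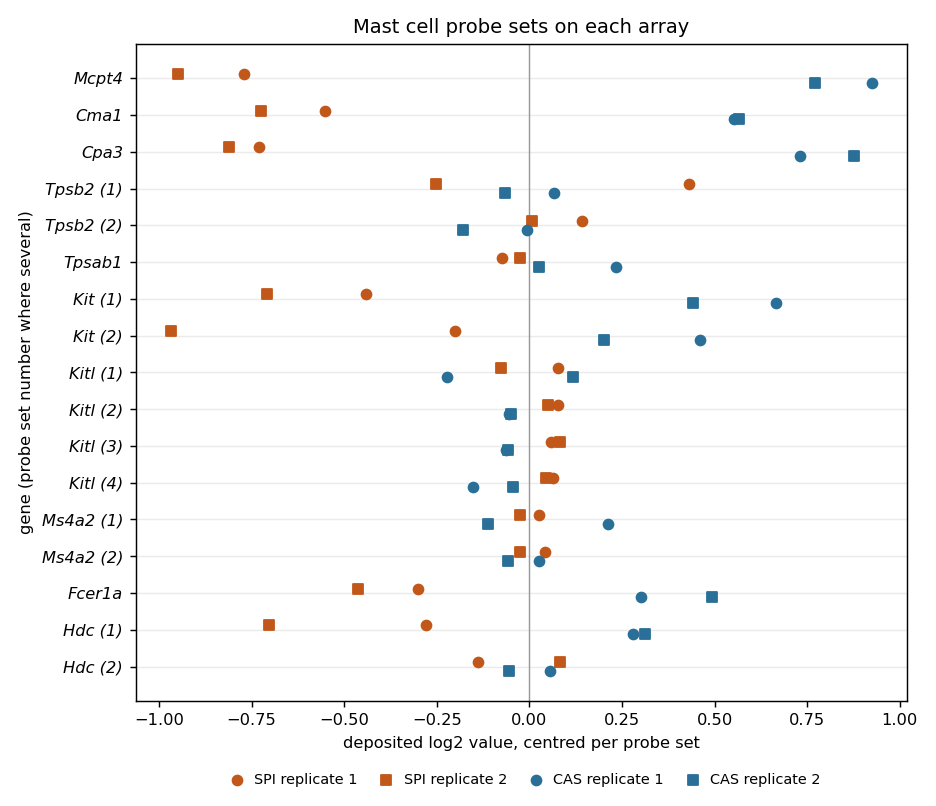
Deposited log2 values, centred per probe set, of the 17 mast cell probe sets (rows) on each of the 4 arrays, with SPI above CAS in each row, circles for replicate 1 and squares for replicate 2. The SPI arrays of Mcpt4, Cma1 and Cpa3 lie at -0.55 or below and their CAS arrays at 0.55 or above, while the points of the Tpsb2, Tpsab1, Kitl and Ms4a2 rows lie within 0.43 of 0.

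Mcpt4 and Cma1 are neighbours in a cluster of serine protease genes on mouse chromosome 14, with Cma2, Mcpt1, Mcpt2 and Mcpt9 between them and Mcpt8, Ctsg and the granzymes beyond. The other genes of the cluster are no members but are named here with their values known, and none of those read by a probe set of their own passed the limma test. Mcpt1, a chymase of mucosal mast cells, had log2 values of -0.03 and 0.16 in SPI, against -0.07 and 0.03 in CAS, a difference of 0.09 (limma adjusted p = 0.697). Mcpt2, the other mucosal chymase, differed by -0.10 (adjusted p = 0.543). Mcpt8, a protease of basophils, differed by 0.06 (adjusted p = 0.735), and Ctsg, cathepsin G, by -0.15 (adjusted p = 0.678). Gzmb, the granzyme at the far end of the cluster, differed by 0.29 (adjusted p = 0.345). Cma2 and Mcpt9 were not read by a probe set with 1 gene. The probe sets of Mcpt1, Mcpt2, Mcpt8 and Gzmb were in the class 2 to 4, and that of Ctsg in the class 4 to 8. For those in the class 2 to 4 it is not established that the RNA was measured, so their small differences do not show unchanged RNA.

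Of the IgE receptor chains, Fcer1a and Ms4a2 gave different values. Fcer1a (1421775_at), the chain that holds IgE, had log2 values of -0.30 and -0.46 in SPI, against 0.30 and 0.49 in CAS. The difference was -0.78 (SE 0.11), or 1.72-fold lower in SPI, and the groups were 0.60 apart at their nearest arrays. Its class was 2 to 4, so the limit given for the fold of Mcpt4 holds here too. Ms4a2, the chain that amplifies the signal, had overlapping groups on both of its probe sets. On the first (1421475_at) the values were 0.02 and -0.02 in SPI, against 0.21 and -0.11 in CAS, a difference of -0.05 (SE 0.13), which became 0.10 when arrays were centred on the hybridization controls. On the second (1443264_at) they were 0.04 and -0.03 in SPI, against 0.03 and -0.06 in CAS, a difference of 0.02 (SE 0.08). The promoters printed above hold a GATAA in both genes. Fcer1g, the gamma chain, which macrophages and other myeloid cells share and which is not in the set, differed by -0.18 (limma adjusted p = 0.673), with overlapping groups.

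Kit was lower in SPI and its ligand Kitl was not. On the first Kit probe set (1452514_a_at) the log2 values were -0.44 and -0.71 in SPI, against 0.67 and 0.44 in CAS, a difference of -1.13 (SE 0.13), or 2.18-fold lower in SPI. On the second (1415900_a_at) they were -0.20 and -0.97 in SPI, against 0.46 and 0.20 in CAS, a difference of -0.92 (SE 0.26). Neither probe set had overlapping groups, but on the second the SPI arrays lay 0.77 apart, more than the 0.40 between the nearest arrays of the 2 diets. Without SPI replicate 2 the difference on the second probe set was -0.53, and without SPI replicate 1 it was -1.30. Kit is also a gene of luminal progenitors. Of 14 probe sets of 6 luminal progenitor markers 6 fell in SPI and 0 rose in the limma fit, and the median difference was -0.45. The 6 were of Ehf, Aldh1a3 and Krt18. Probe sets of Elf5 (-0.21 and -0.19), Cd14 (-0.32) and Krt8 (-0.38 to -0.35) did not pass, nor did further ones of Ehf (0.14) and Aldh1a3 (-0.53). Of all 45037 probe sets, the fit called 1.25% lower and 0.249% higher at an adjusted p under 0.05 (1.5% in all). With SPI replicate 1, SPI replicate 2, CAS replicate 1 or CAS replicate 2 left out, so that a lone array stood for a diet, 0 of the 45037 passed, which holds for every call given here. The part of luminal progenitors in the Kit values was not tested.

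Kitl, the KIT ligand, which fibroblasts, endothelial cells and epithelia make, was read by 4 probe sets, all in the class 8 to 16. On 3 of them both SPI arrays lay above both CAS arrays, by 0.09 to 0.12 at the nearest arrays. The probe set with the largest difference of the 4 (1426152_a_at) had log2 values of 0.06 and 0.04 in SPI, against -0.15 and -0.04 in CAS, a difference of 0.15 (SE 0.08). Those of the other 3 were 0.12 (1448117_at), 0.13 (1415855_at) and 0.05 (1415854_at). On the last one the groups overlapped, with 0.08 and -0.08 in SPI, against -0.22 and 0.12 in CAS. The differences were small beside those of Kit, and the median difference of all probe sets was itself 0.02.

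Hdc, the enzyme that makes histamine from histidine, was read by 2 probe sets that differed from each other, and by their suffix both can bind transcripts of more than 1 gene. On the first (1454713_s_at) the log2 values were -0.28 and -0.70 in SPI, against 0.28 and 0.31 in CAS, a difference of -0.79 (SE 0.15), or 1.73-fold lower in SPI. On the second (1451796_s_at) they were -0.14 and 0.08 in SPI, against 0.05 and -0.05 in CAS, and the groups overlapped, with a difference of -0.03 (SE 0.11) that became 0.13 when arrays were centred on the hybridization controls. The first was in the class 2 to 4, with the limit on its fold given for Mcpt4, and the second in the class 4 to 8.

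Across the 17 probe sets the differences fell into 2 ranges. For 7 probe sets of 6 genes (Mcpt4, Cpa3, Cma1, Kit, Hdc and Fcer1a) SPI was lower by at least 0.78 on the log2 scale, and for the other 10 the size of the difference was at most 0.18. On each of those 7 the SPI replicate 2 array was lower than SPI replicate 1. Both SPI arrays lay below both CAS arrays on 8 of the 17, where 20.5% of all probe sets did so, and above them on 4, where 27.9% did. The members were chosen on this contrast, so nothing is read from these counts. The median of the 17 differences was -0.05, and that of all probe sets was 0.02.

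**Figure D2:**
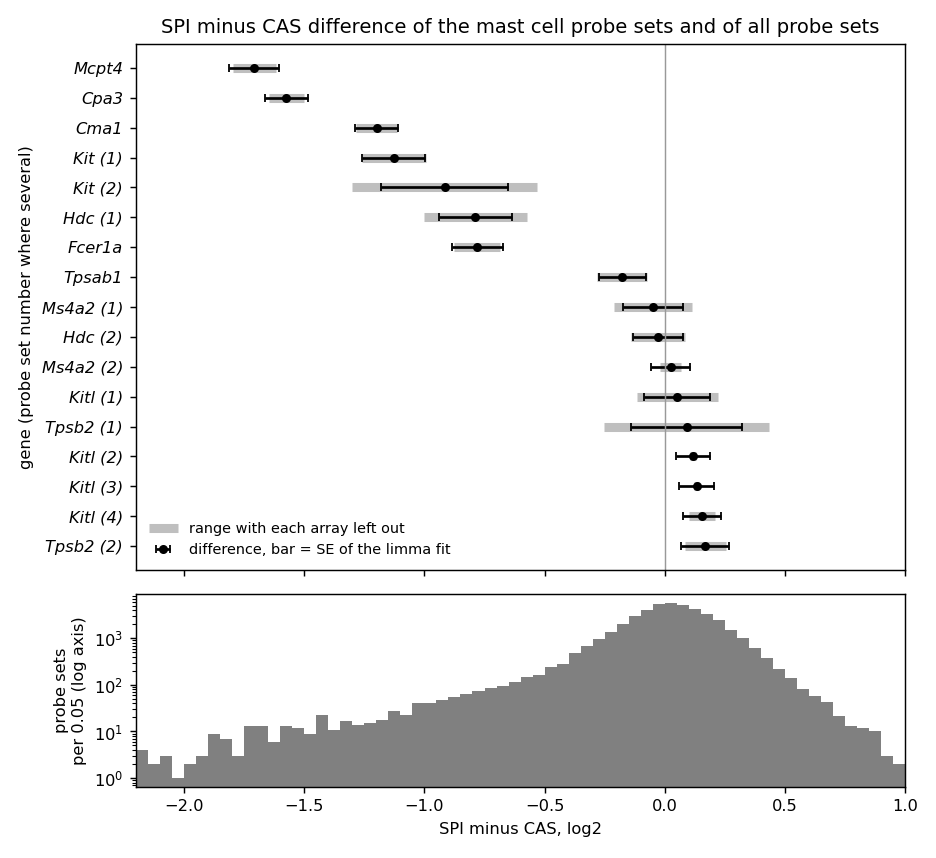
Upper panel: SPI minus CAS difference in log2 of each mast cell probe set, sorted, with the SE of the limma fit as a bar and the range with each array left out in grey. Lower panel: the number of probe sets per bin of 0.05 over all 45037, on a log axis, shown between -2.2 and 1. The 7 probe sets with differences of -0.78 or lower keep their sign with each array left out, as they must where groups do not overlap. Of the other 10, 5 change sign.

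Genes that act with the members were set beside them in 5 lists, 72 genes of which 65 were measured by 119 probe sets. Of these 119, 1 fell in SPI (0.84%, against 1.25% of all probe sets), 0 rose (against 0.249%), and 24 (20.2%, against 17.8% of all probe sets) had an unadjusted p under 0.05 in limma. The 1 was Srgn, serglycin, the proteoglycan core to which mast cell proteases bind in the granule and which other leukocytes and endothelial cells also make. Srgn had log2 values of -0.34 and -0.35 in SPI, against 0.34 and 0.44 in CAS, a difference of -0.74 (SE 0.08, limma adjusted p = 0.0269). The groups did not overlap, and its probe set was in the class 8 to 16. After centring on the hybridization controls, which moved the median of all differences to 0.18, Srgn fell and Pik3cd, Aoc1, Lat2 and Tpsg1 rose, where 1557 of all probe sets rose and 704 fell, against 112 and 564 without that centring.

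The rest of the granule and identity list, 18 of 19 probe sets, did not pass. Gata2, the transcription factor named above, was at -0.44 (limma adjusted p = 0.264) on one probe set, in the class 2 to 4. It was at -0.09 on the other, in the class 8 to 16. Rab27b, a GTPase of granule release, was at -0.38 (adjusted p = 0.297) on one probe set and between -0.26 and 0.08 on 3 others. The median of the list was -0.07, and it was 0.08 after centring arrays on the hybridization controls.

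The signalling lists held no called probe set. Of 27 probe sets of IgE receptor signalling, with a median of 0.09, the adaptor Gab2 was at -0.57 (limma adjusted p = 0.134), the phospholipase Plcg2 at -0.52 (adjusted p = 0.0879) and the adaptor Lat2 at 0.33 (adjusted p = 0.224). Of 41 probe sets of KIT signalling, with a median of 0.06, the kinase subunit Pik3cd was at 0.49 (adjusted p = 0.0975), the inhibitor Spred1 at 0.41 (adjusted p = 0.180) and the phosphatase Ptpn11 at 0.31 (adjusted p = 0.335). These values are from the probe set of each gene with the largest difference, which for Pik3cd was in the class 2 to 4. The other probe sets lay at -0.18 and -0.12 for Gab2, -0.04 and 0.09 for Lat2, between -0.05 and 0.09 for Pik3cd (5 probe sets), between 0.04 and 0.22 for Spred1 (7 probe sets) and at -0.05 and 0.03 for Ptpn11. Most of these genes are used by many cell types.

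The mediator and cytokine lists also held none. Of 15 probe sets of histamine and eicosanoid genes, with a median of 0.12, Ptgs2, the inducible cyclooxygenase, was at -0.63 (limma adjusted p = 0.0888) on one probe set and at 0.12, the opposite direction, on the other, which was in the class 8 to 16. In the same list were Aoc1, which breaks down histamine, at 0.35 (adjusted p = 0.208), and the histamine receptor Hrh1 at 0.27 (adjusted p = 0.174) and, on its other probe set, 0.15. Of 17 probe sets of mast cell growth factors, cytokines and their receptors, with a median of -0.07 (0.09 after centring on the hybridization controls), the epithelial cytokine Tslp was at -0.69 (adjusted p = 0.154). Its probe set was in the class 2 to 4, and its SPI arrays were at -0.71 and -0.20. The beta chains of the interleukin-3 family receptors, Csf2rb and Csf2rb2, were at -0.65 (adjusted p = 0.117, and -0.10 on a second probe set) and -0.64 (adjusted p = 0.0541).

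Markers of other cells moved on the same arrays. Of 19 probe sets of 9 fibroblast markers, 11 fell in SPI (57.9%, against 1.25% of all probe sets) and 0 rose. The median difference was -1.31, with list medians of -0.61 and -0.63 in SPI, against 0.61 and 0.63 in CAS. Lum, a proteoglycan of the stroma, was at -2.32 (limma adjusted p = 0.00416). No probe set of Dcn (-0.12 and 0.01) or Fbln1 (-0.21, -0.12 and 0.06) passed. Of 7 probe sets of 6 endothelial markers, 2 fell, Cdh5 (-0.94, and 0.10 on a second probe set that did not pass) and Plvap (-0.86), with a median of -0.58 and list medians of -0.18 and -0.42 in SPI, against 0.33 and 0.29 in CAS. The part of these cells in the mast cell values was not tested.

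Of the markers of other leukocytes, 1 gene passed the test. Of 14 macrophage probe sets 0 passed the limma test, and the median difference was 0.30 with list medians of 0.08 and 0.14 in SPI, against -0.15 and -0.08 in CAS. Of 11 pan-leukocyte probe sets 0 passed (median 0.13), with Ptprc, the CD45 gene, at 0.22 and 0.15. None of the 5 basophil (median 0.04), 3 eosinophil (0.05), 10 T and NK cell (0.07) or 4 B cell (-0.09) probe sets passed. In the class 8 to 16 were 2 basophil, 0 eosinophil, 2 T and NK cell and 0 B cell probe sets. Probe sets of Cd200r3, Prg2, Ccr3, Cd8a and Ms4a1 were in the class 2 to 4, where it is not established that the RNA was measured. Medians near 0 in these lists therefore do not show unchanged RNA. The gene that passed was Ltf, at -1.87 (adjusted p = 0.00707), 1 of 6 neutrophil probe sets, which milk-producing epithelium also expresses. Of 9 melanocyte probe sets, listed because melanocytes use Kit, 0 passed (median -0.06). Of 18 basal and myoepithelial probe sets 1 rose, Oxtr, the oxytocin receptor, at 0.68 (adjusted p = 0.0270, and 0.30 on a second probe set that did not pass), with a median of 0.12. After centring on the hybridization controls the fibroblast median was -1.16 and the macrophage median 0.45, and those of the B cell and melanocyte lists turned to 0.07 and 0.10.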

How the data were processed

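Gene expression was read on 4 Affymetrix arrays of sorted mammary basal cells, 2 SPI and 2 CAS. Per the submitters' processing notes, GCOS and RMA were used, the versions being not given in the sources used here. Log2 values by RMA were deposited, and from their digits they had also been centred per probe set (largest absolute median 5e-07), a step that no label records. Background correction and quantile normalization need levels, so they could not be varied.

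All 45037 non-control probe sets were fitted for SPI minus CAS without a block (lmFit, then eBayes, of limma 3.58.1 under R 4.3.3, two-sided), adjusted by Benjamini-Hochberg over all of them, with a threshold of 0.05. The fit had 2 residual and 3.12 prior degrees of freedom. It was also run on simulated data with independent noise and no shift common to an array, so that run does not vouch for the calls in these data. An SE is that of this fit, and the number of arrays limits its precision. Probe sets were named through the platform annotation, with symbols updated by gene ID for the lists (34741 of 34945 matched). The members and lists were chosen with earlier results of these data known. Named genes were all members, and from each other list the 3 probe sets with the largest absolute difference and any past the threshold (up to 6), of which the marker lists give a few. Neighbours in the protease cluster, Fcer1g, the further probe sets of genes named from the lists, Krt5 and Acta2 were named after their values were seen. Same-numbered arrays did not deviate together over the probe sets (correlation -0.099), and the labels name no block. With 2 arrays per diet this does not settle whether replicate numbers pair the arrays.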

Additional observations from a re-analysis of the deposited data

How the results depend on the processing

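Without 1 array a diet rests on a lone array, assumed to vary like the others, and the count of called probe sets was 0 each time in place of 676 (4882 to 6513 at an unadjusted p under 0.05), and of 1 among the related genes, Srgn (limma). With the replicate block the counts were 79 (4 higher, 75 lower) and 0. Hybridization controls, 18 probe sets of transcripts added to each sample, were lower in SPI by -0.16. Centring arrays on them moved the median of all differences to 0.18, and gave 2261 calls (1557 higher, 704 lower, against 112 and 564), and 5 among the related genes, 4 of them higher. The level filter, which keeps the classes of 4 and above, gave 1171 and 2, and the threshold of 0.1 gave 1579 in all and 5 related. Centring on array medians gave 2 related calls and gene means 3. Leaving out each array kept the sign of 12 of 17 member differences. These 12 had groups that did not overlap, where the sign cannot change. Of all probe sets, 20.5% had SPI below CAS without overlap and 27.9% had SPI above. The hybridization controls kept the sign of 15 of the 17. Of 136 member values under the alternatives, 120 moved by less than the spread between replicates and 16 by more. By their arithmetic, leaving out an array or adding the block cannot move a difference beyond that spread. The 120 are therefore no measure of stability. The 16 arose under array medians, hybridization controls and gene means, and most under the hybridization controls, among them Mcpt4, Cma1, Cpa3 and Fcer1a.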
